A study of Homo sapiens with 6 samples.

Results

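Amino acid transporters carry amino acids across the plasma membrane. Here 10 genes of this kind, chosen by symbol (SLC7A5, SLC3A2, SLC7A11, SLC7A1, SLC1A4, SLC1A5, SLC38A1, SLC38A2, SLC6A9 and SLC43A1), are followed in HCT116 cells, a line of human colorectal cancer cells. All 10 match a single Ensembl identifier among the 58395 genes of the series. A non-target short hairpin RNA (shControl) is carried by 3 biological replicates, and RNA from these is set against that of 3 in which a short hairpin RNA targets STBD1 (shSTBD1), a cargo receptor that binds glycogen and takes it to autophagy. Both groups are cells infected with lentivirus and selected for the vector, and both are grown in serum-supplemented DMEM. The knockdown rests on 1 hairpin, and whether each line is a pool or a clone is not given in the sources used here.

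Amino acid transporters work as a coupled system. SLC3A2 (4F2hc, CD98) is a heavy chain that has no transport activity of its own and brings light chains such as SLC7A5 (LAT1) and SLC7A11 (xCT) to the cell surface. SLC7A5 is an exchanger, which lets large neutral amino acids such as leucine in while glutamine goes out, so that it depends on the glutamine that SLC1A5 (ASCT2), SLC38A1 (SNAT1) and SLC38A2 (SNAT2) bring in. When amino acids run short, the kinase GCN2 raises the translation of ATF4, a transcription factor that is known to act on many transporter genes, and rapidly dividing tumour cells often express these genes at a high level.

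The 6 libraries hold between 17689097 and 21668274 expected counts, RSEM's estimate of the fragments that come from each gene. STBD1 itself lies at 5.73, 5.83 and 5.27 TPM (a level per transcript length, scaled to a fixed total in each library) in shControl replicates 1 to 3, and at 4.19, 3.22 and 3.27 in shSTBD1. The fold change of STBD1 is -0.64 on the log2 scale with a standard error of 0.098 (edgeR, adjusted p = 2.9e-04 over the 15566 genes tested). The posterior standard deviation that RSEM gives its count is up to 10.5% of the count, and the annotation has a read-through gene, FAM47E-STBD1, over it. shControl replicate 1 stands apart from the other shControl libraries, with a chi-square per gene of 6.20 and 4.93 against 1.65 between replicates 2 and 3 and 1.80 to 2.02 among the shSTBD1 libraries. Summed over 8 markers of colorectal epithelium, the level is 2858 to 2893 TPM in shControl and 3242 to 3378 in shSTBD1. Most of this sum is keratin RNA: KRT8, KRT19 and KRT18 have means of 1249, 734 and 685 TPM in shControl. KRT8, KRT18, KRT19 and CDH1 are higher in shSTBD1, and EPCAM and CDX2 do not pass the test (adjusted p of 0.42 and 0.66 in edgeR). CDX2 is at 7.65, 7.46 and 6.89 TPM in shControl and 5.59, 4.57 and 6 TPM in shSTBD1, lower with no overlap, while its CPM values overlap. VIL1 and LGALS4, markers of mature epithelium, stay at or below 0.21 and 0.16 TPM. Over 12 markers of leukocytes, fibroblasts and endothelium, the sum is 15.7 to 21.5 and 18.3 to 21.8 TPM, nearly all of it COL1A1. PTPRC and CD3E are at 0 in all 6 libraries. The part of these markers and of shControl replicate 1 in the results below was not tested, beyond the values given without that library.

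Of the 10 transporters, 7 fall in shSTBD1 cells and 0 rise at an adjusted p under 0.05 (quasi-likelihood test in edgeR, adjusted over all tested genes). SLC7A11 falls by 38.2%, SLC1A4 by 30.8%, SLC7A1 by 22.4%, SLC38A1 by 17.2%, SLC7A5 by 14.8%, SLC1A5 by 9.86% and SLC3A2 by 9.44%. SLC6A9, SLC38A2 and SLC43A1 do not pass the test. Among all 15566 tested genes, 7.54% are called lower and 8.22% higher. The median log2 fold change is -0.25 over the 10 transporters and 0.0023 over all tested genes. The 10 were chosen with earlier results of these data known, so the comparison with all tested genes is a description only. All 10 pass the filter on low counts, with between 67 and 22655 expected counts per library. At an unadjusted p under 1e-5 in edgeR, 4 of the 10 are lower (SLC7A11, SLC7A1, SLC38A1 and SLC7A5), and 0 are higher, against 0.957% and 1.43% of the tested genes. The study set this cutoff on p-values from DESeq2, together with a condition on the TPM fold change that was not applied here. In bulk RNA, fewer cells that express a gene and less of its RNA per cell cannot be told apart.

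**Figure D1:**
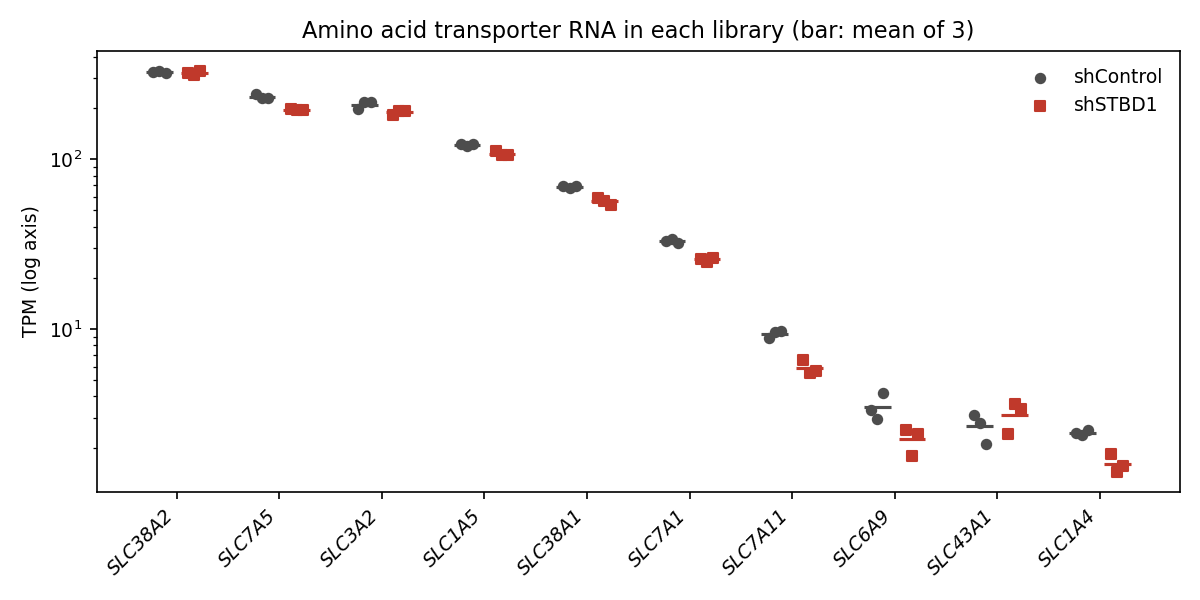
Level of each transporter in each library, as TPM on a log axis, in order of the shControl mean; circles are shControl, squares are shSTBD1 and bars are means of 3 libraries. The levels run from over 300 TPM for SLC38A2 to under 3 TPM for SLC1A4, and the shSTBD1 libraries lie below the shControl libraries in 8 of the 10 genes. The share of all genes that do so was not computed for TPM, and in CPM it is 16.3% of the tested genes.

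The levels span a wide range. In shControl cells SLC38A2 stands first at 326 ± 5.33 TPM (SD, n = 3), followed by SLC7A5 at 234 ± 6.97, SLC3A2 at 210 ± 11.7, SLC1A5 at 122 ± 1.68, SLC38A1 at 68.7 ± 0.882, SLC7A1 at 32.9 ± 1.08 and SLC7A11 at 9.36 ± 0.469. Each of these neighbours is separated by all 3 of its libraries. SLC6A9 at 3.48 ± 0.648 TPM, SLC43A1 at 2.66 ± 0.512 and SLC1A4 at 2.44 ± 0.0907 overlap with their neighbours, so that their order is within the spread between libraries. In shSTBD1 cells the first 7 keep this order, SLC43A1 comes before SLC6A9, and both again overlap with the gene after them. Per length, the sum of the 10 is 1007, 1018 and 1008 TPM in shControl and 911, 901 and 915 in shSTBD1. The sums do not overlap, and the difference of -0.15 on the log2 scale has an exact permutation p of 0.1 (two-sided, the smallest that 3 libraries against 3 allow, 0.125 after Benjamini-Hochberg adjustment over the 5 sums and ratios tested).

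SLC7A5 (ENSG00000103257, chromosome 16 of GRCh38, 87830023 to 87869507) is the light chain that exchanges leucine and other large neutral amino acids. It is at 242, 230 and 229 TPM in shControl replicates 1 to 3 and at 197, 195 and 195 TPM in shSTBD1. No library of one group reaches into the other, and the shSTBD1 libraries lie much closer together (SD 0.907) than the shControl libraries (SD 6.97). The log2 fold change is -0.23 (standard error, SE, 0.036, edgeR adjusted p = 3.5e-04). Without shControl replicate 1, the highest library, it is -0.19.

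SLC3A2 (ENSG00000168003, chromosome 11, 62856004 to 62888880), the heavy chain, is at 196, 217 and 216 TPM in shControl and 182, 192 and 192 TPM in shSTBD1. The gap between the lowest shControl and the highest shSTBD1 library is narrow. Its log2 fold change is -0.14 (SE 0.033, edgeR adjusted p = 0.0079). The call is lost without shSTBD1 replicate 1 (adjusted p = 0.055) and with offsets for effective length, RSEM's average length of the isoforms in use (adjusted p = 0.12).

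SLC7A11 (ENSG00000151012, chromosome 4, 138164097 to 138242349) takes up cystine in exchange for glutamate and so feeds the synthesis of glutathione. Its levels are 8.83, 9.53 and 9.72 TPM in shControl and 6.58, 5.48 and 5.65 TPM in shSTBD1. It has the largest decrease of the 10, and every shSTBD1 library is more than 2 TPM below every shControl library. The log2 fold change is -0.69 (SE 0.047, edgeR adjusted p = 6.7e-08), and 1.12% of the tested genes have one as low.

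The light chains can be set against their heavy chain, and against each other, within a library. SLC7A5 and SLC7A11 summed, divided by SLC3A2 in the same library, give 1.28, 1.11 and 1.10 in shControl and 1.12, 1.05 and 1.05 in shSTBD1, on the TPM scale. These ratios overlap between the groups (exact permutation test, two-sided p = 0.3, adjusted p = 0.3). Taken from CPM, the same ratio is 3.64, 3.18 and 3.22 in shControl and 3.16, 3.00 and 3.08 in shSTBD1, with no overlap (exact permutation test, two-sided p = 0.1). On the TPM scale the log2 difference is -0.12, and it is -0.048 without shControl replicate 1. Since SLC3A2 also serves other light chains, the ratio is not a count of complexes. The ratio of SLC7A5 to SLC7A11 is 27.4, 24.2 and 23.6 in shControl and 29.9, 35.6 and 34.5 in shSTBD1. All 3 shSTBD1 values are higher, by 0.41 on the log2 scale (exact permutation test, two-sided p = 0.1, adjusted p = 0.125).

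SLC7A1 (CAT1; ENSG00000139514, chromosome 13, 29509414 to 29595688) needs no heavy chain and takes up the cationic amino acids arginine, lysine and ornithine. It is at 32.9, 34.1 and 31.9 TPM in shControl and at 25.8, 24.9 and 26.3 TPM in shSTBD1. The groups are far apart against the spread within them. Its log2 fold change is -0.36 (SE 0.033, edgeR adjusted p = 1.2e-06), and over the 17 alternative settings it stays between -0.39 and -0.35.

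SLC1A4 (ASCT1; ENSG00000115902, chromosome 2, 64988477 to 65023865) exchanges alanine, serine, cysteine and threonine. Its levels are 2.43, 2.36 and 2.54 TPM in shControl and 1.83, 1.44 and 1.55 TPM in shSTBD1. It is among the 3 least expressed of the 10, with 120 to 182 expected counts per library, and its groups do not overlap. The log2 fold change is -0.53 (SE 0.11, edgeR adjusted p = 0.0037). Its effective length is 3.91% longer in shSTBD1, where all 3 libraries lie above shControl, and with limma on log2(TPM + 1) its adjusted p is 0.099.

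SLC1A5 (ENSG00000105281, chromosome 19, 46774883 to 46788594) exchanges glutamine and other small neutral amino acids and is the abundant relative of SLC1A4. Its 123, 120 and 122 TPM in shControl compare with 112, 106 and 106 TPM in shSTBD1. The decrease is small and the libraries do not overlap. The log2 fold change is -0.15 (SE 0.035, edgeR adjusted p = 0.0079), and the call is lost without shSTBD1 replicate 2 (adjusted p = 0.064). Within a library SLC1A5 exceeds SLC1A4 on the TPM scale by 50.7, 50.8 and 48.1 times in shControl and by 61.0, 73.8 and 68.1 times in shSTBD1. The ratio is higher in all 3 shSTBD1 libraries, by 0.44 on the log2 scale (exact permutation test, two-sided p = 0.1, adjusted p = 0.125).

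SLC38A1 (ENSG00000111371, chromosome 12, 46183063 to 46270017) and SLC38A2 (ENSG00000134294, chromosome 12, 46358188 to 46372773) are neighbouring genes for sodium-coupled carriers of glutamine and other neutral amino acids. SLC38A1 is at 69.1, 67.7 and 69.3 TPM in shControl and at 59.1, 56.6 and 53.4 TPM in shSTBD1. SLC38A2 is at 326, 331 and 321 TPM in shControl and at 323, 314 and 330 TPM in shSTBD1. SLC38A1 separates the groups and SLC38A2 does not. The log2 fold change of SLC38A1 is -0.27 (SE 0.031, edgeR adjusted p = 1.2e-05). For SLC38A2 it is 0.0054 (SE 0.029, edgeR adjusted p = 0.93), with a 95% interval from -0.056 to 0.067, which leaves out a decrease of the size of SLC38A1. The ratio of SLC38A2 to SLC38A1 is 4.71, 4.90 and 4.63 in shControl against 5.46, 5.54 and 6.18 in shSTBD1. This is a difference of 0.27 on the log2 scale, in the same direction in all 3 libraries (exact permutation test, two-sided p = 0.1, adjusted p = 0.125).

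SLC6A9 (GLYT1; ENSG00000196517, chromosome 1, 43991500 to 44031467), a sodium- and chloride-coupled glycine carrier, is at 3.31, 2.94 and 4.20 TPM in shControl and at 2.55, 1.78 and 2.42 TPM in shSTBD1. The libraries do not overlap. Its log2 fold change of -0.43 has a standard error of 0.15 and an adjusted p of 0.059 in edgeR, just outside the threshold, with a 95% interval from -0.75 to -0.12. The call changes with the fit: the adjusted p is 0.043 with a replicate block and 0.022 without the filter on low counts, and it runs up to 0.23 over the other settings. It is also called without shControl replicate 2 (-0.52, edgeR adjusted p = 0.038) and, barely, without shSTBD1 replicate 1 (-0.54, edgeR adjusted p = 0.0497). Between 90.0 and 136 expected counts stand behind each value, and the effective length runs from 2099 to 2282 bases in shControl and from 2275 to 2596 in shSTBD1, overlapping in a single pair of libraries.

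SLC43A1 (LAT3; ENSG00000149150, chromosome 11, 57484534 to 57515780) is a carrier of leucine and other branched amino acids that needs no heavy chain. It is at 3.10, 2.79 and 2.10 TPM in shControl and at 2.39, 3.60 and 3.36 TPM in shSTBD1. These groups overlap. CPM values are counts scaled by the library total and its TMM factor, with no account of length. In CPM all 3 shSTBD1 libraries (4.16, 4.78 and 5.65) lie above shControl (4.10, 4.12 and 3.78). The log2 fold change is 0.28 (SE 0.15, edgeR adjusted p = 0.23), with a 95% interval from -0.038 to 0.60, and it is 0.16 without shSTBD1 replicate 3. At 67 to 112 expected counts per library, neither a small decrease nor a rise of this size can be told from no change.

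**Figure D2:**
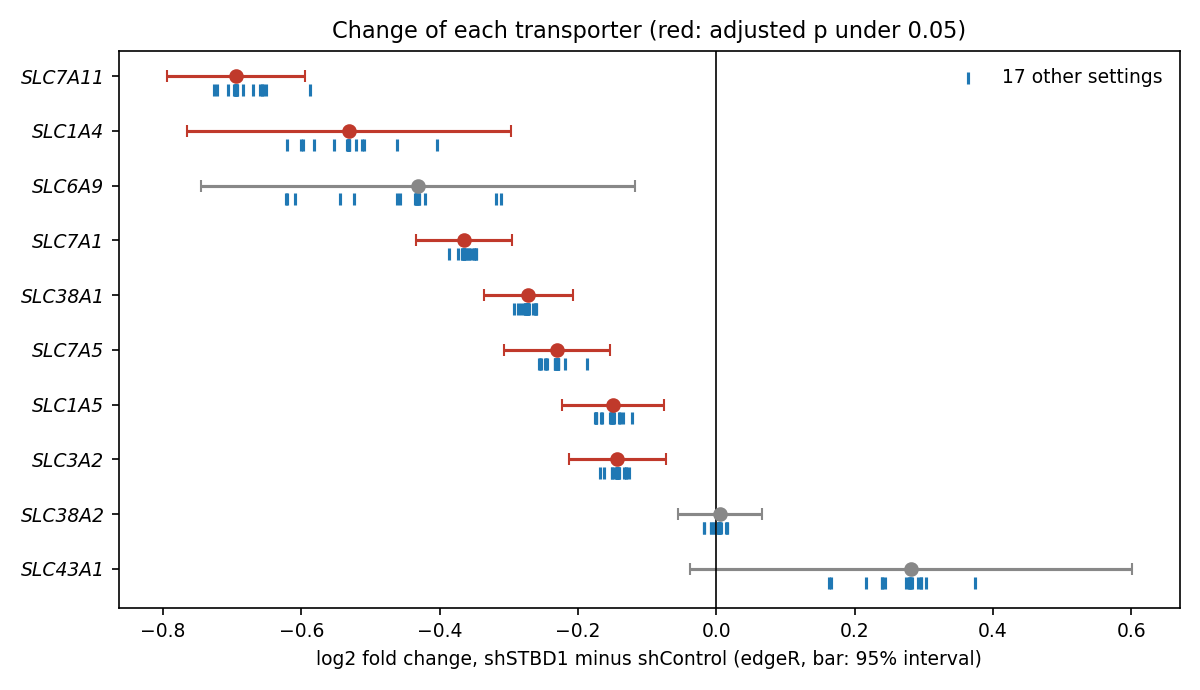
Log2 fold change of each transporter (horizontal axis, shSTBD1 minus shControl); points and bars are edgeR's estimate with its 95% interval, red where the adjusted p is under 0.05, and blue ticks are the 17 alternative settings. The 7 red genes and SLC6A9 stay below 0 under every setting, SLC38A2 stays within 0.02 of 0, and SLC43A1 stays above 0.

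In CPM scaled by TMM, 8 of the 10 transporters have all shSTBD1 libraries below all shControl libraries and 1, SLC43A1, has them above, where 16.3% and 17.4% of the tested genes do so. Reads are hardly shared with other genes: the posterior standard deviation of the count is 0 for 7 of the 10 and at most 0.490% of the count, in SLC7A11. Of the 7 calls, 4 (SLC7A5, SLC7A11, SLC7A1 and SLC38A1) pass under all 17 alternatives. Without shControl replicate 1 the number called lower is again 7, and with a library left out it runs from 6 to 8.

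Genes that answer to ATF4 often hold the amino acid response element in or near their promoter. Its letters TGATGNAAN, where N is any base, were sought on both strands of RefSeq promoter windows of GRCh38.p14, each with 250 bases before and 50 after a start site. Of the 9 transporters with a window (SLC7A11 has none), 5 hold it in 5 of their 16 windows, namely SLC3A2, SLC7A1, SLC1A4, SLC1A5 and SLC38A1. All 5 are among the 7 that fall. Over all of RefSeq's windows 3.61% of the windows and 4.45% of the genes hold it, and 2.67% of the 11167 tested genes that have a window. ASNS, CHAC1 and CEBPG, which are lower in shSTBD1, hold it among the 18 genes of the amino acid response with a window. It also stands in genes of the other lists that are not called lower, namely SLC1A3, a glutamate carrier (log2 fold change -0.15, edgeR adjusted p = 0.44), GOT1, an aspartate aminotransferase (0.10, edgeR adjusted p = 0.063), and BCAT1, a branched-chain aminotransferase that is at 0 TPM in all 6 libraries. The sites of all 11 genes are shown to set the letters around the element side by side. Each is printed 5′ to 3′ on the strand that reads TGATGNAAN, with the element in capitals and up to 10 bases on either side.
SLC3A2 (chr11:62881725-62881748, - strand, coding exon): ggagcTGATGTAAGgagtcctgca
SLC7A1 (chr13:29595663-29595691, - strand, exon, untranslated): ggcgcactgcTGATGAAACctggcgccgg
SLC1A4 (chr2:64989381-64989409, - strand, exon, untranslated): cggctggagaTGATGCAAAcgggagccgc
SLC1A5 (chr19:46784893-46784921, - strand, exon, untranslated): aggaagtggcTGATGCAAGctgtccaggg
SLC38A1 (chr12:46266502-46266530, - strand, intron): cagacccgaaTGATGAAAAgggatcagct
ASNS (chr7:97872458-97872486, - strand, exon, untranslated): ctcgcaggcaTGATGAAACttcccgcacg
CHAC1 (chr15:40953251-40953279, - strand, exon, untranslated): ctggcaggagTGATGCAACggcaggggag
CEBPG (chr19:33374061-33374089, + strand, intron): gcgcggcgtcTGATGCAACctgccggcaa
SLC1A3 (chr5:36596358-36596386, + strand, upstream): aggaaatgacTGATGCAAAgcagggttaa
GOT1 (chr10:99430805-99430833, + strand, upstream): ctgccgagaaTGATGCAACcaatgcaatt
BCAT1 (chr12:24949131-24949159, - strand, upstream): gtcttcctgcTGATGCAATccgctaggtc
The annotation is that of GENCODE release 44 over all transcripts of the gene, and some windows belong to start sites inside the longest gene model. A match of letters is a description of the sequence and does not show that a factor binds there. SLC7A5, which falls, and SLC6A9, SLC38A2 and SLC43A1, which do not pass the test, have no such letters in their windows.

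The amino acid response itself was followed in 22 regulators and targets of GCN2 and ATF4, all of them tested. Of these, 10 are lower and 3 are higher in shSTBD1, with a median log2 fold change of -0.089. The calls are 45.5% and 13.6% of the list, beside 7.54% and 8.22% of all tested genes. The largest decreases are in CHAC1, an enzyme that degrades glutathione, ASNS, which makes asparagine, PCK2, the mitochondrial PEP carboxykinase, and PHGDH, the first enzyme of serine synthesis. ASNS falls from 106, 110 and 113 TPM to 74.95, 73.85 and 74.42 TPM, a log2 fold change of -0.59 (SE 0.034, edgeR adjusted p = 1.3e-08). CHAC1, PCK2 and PHGDH have log2 fold changes of -0.64, -0.54 and -0.51 (adjusted p of 1.7e-04, 6.7e-06 and 5.1e-08 in edgeR). Others go the opposite way: DDIT4, an inhibitor of mTORC1, CTH, which makes cysteine, and MTHFD2, a mitochondrial folate enzyme, rise by 0.29, 0.29 and 0.10 on the log2 scale (adjusted p of 6.6e-06, 0.038 and 0.034 in edgeR). ATF4, named here after its values were seen, is at 295, 364 and 344 TPM in shControl and at 315, 301 and 309 TPM in shSTBD1, a log2 fold change of -0.086 that does not pass the test (adjusted p = 0.22 in edgeR). Without shControl replicate 1, its lowest shControl library, it is -0.16 and passes (adjusted p = 1.0e-04 in edgeR), and without shControl replicate 2, the highest, it is -0.036 (adjusted p = 0.65 in edgeR). These data do not measure its protein. The number of lower genes is 12 without shControl replicate 1, 7 without shSTBD1 replicate 2 and 6 without any other library. The number of higher genes is 3 without shControl replicate 1 and 1 without any other library, where CTH and MTHFD2 lose their calls.

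Further amino acid transporters of the plasma membrane are mostly silent in these cells. Of 30, 19 have too few counts to be tested, and 20 stay under 1 TPM in all 6 libraries, so that the 10 hold 87.5% to 89.7% of the summed TPM of all 40. Of the 11 tested, 1 is lower, 1 is higher and 9 do not pass, with a median log2 fold change of -0.045. The calls are 9.09% in each direction, beside 7.54% and 8.22% of all tested genes. SLC7A2 (CAT2), another carrier of cationic amino acids, falls from 7.22, 7.37 and 7.08 TPM to 5.94, 6.64 and 6.27 TPM, a log2 fold change of -0.22 (SE 0.046, edgeR adjusted p = 0.0045). SLC6A6, the carrier of taurine, is at 15.93, 18.04 and 16.70 TPM in shControl and at 20.11, 17.87 and 19.18 TPM in shSTBD1. Its CPM values separate the groups and its TPM values do not, and its log2 fold change is 0.26 (SE 0.038, edgeR adjusted p = 1.7e-04). Neither passes with effective-length offsets or with limma on TPM.

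Carriers inside the cell move amino acids over the lysosomal and mitochondrial membranes. Of the tested genes, 12.5% of the lysosomal and 11.1% of the mitochondrial carriers are called higher. Among all tested genes 7.54% are lower and 8.22% higher, and nothing is read from these 2 lists as a whole. Of 10 lysosomal and endosomal carriers, 8 are tested, and 0 are called lower and 1 higher, with a median log2 fold change of -0.045. The higher gene is SLC15A4, a histidine and peptide carrier of lysosomes, at 12.5, 15.5 and 14.8 TPM in shControl and 16.3, 16.1 and 19.2 TPM in shSTBD1 (log2 fold change 0.27, standard error 0.054, adjusted p = 0.0025 in edgeR). Of 11 mitochondrial carriers, 9 are tested, and 0 are lower and 1 is higher, SLC25A22, which carries glutamate, by 0.22 on the log2 scale (SE 0.050, edgeR adjusted p = 0.0074). Its TPM values overlap between the groups, and the call is lost without shSTBD1 replicate 1 or shSTBD1 replicate 2. At an unadjusted p under 0.05, edgeR has 2 lysosomal and 1 mitochondrial carrier lower, and DESeq2 calls 0 lower in either list after adjustment. Without shControl replicate 1, edgeR calls 1 mitochondrial carrier lower, and without shControl replicate 3 it calls 2 higher.

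Amino acids that enter the cell are sensed on the lysosome by the proteins that switch on mTORC1. Of 31 genes of this machinery, all tested, 1 is lower and 4 are higher, with a median log2 fold change of 0.014. These are 3.23% and 12.9% of the list, beside 7.54% and 8.22% of all tested genes, and nothing is read from them about the machinery as a whole. RRAGC, a subunit of the Rag GTPases, is at 6.64, 7.46 and 6.87 TPM in shControl and 9.07, 9.21 and 9.26 TPM in shSTBD1 (log2 fold change 0.40, standard error 0.068, adjusted p = 8.8e-04 in edgeR). LAMTOR4 and LAMTOR5, which anchor the Rag GTPases, rise by 0.24 and 0.23, and SESN1, a relative of the leucine sensor SESN2, by 0.23 (adjusted p of 0.0029, 0.017 and 0.045 in edgeR). RRAGD, another Rag GTPase, falls by 0.16 on the log2 scale (adjusted p = 0.047 in edgeR) and is not called with any library left out. SESN1 keeps its call without shControl replicate 3 alone, and LAMTOR5 loses it without shSTBD1 replicate 3, where 2 genes are higher. Without shControl replicate 1 the log2 fold change of LAMTOR5 is 0.15.

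Enzymes that use the transported amino acids are called in both directions. Of 18, 17 are tested, with 3 lower, 3 higher and a median log2 fold change of 0.012. These calls are 17.6% of the tested enzymes in each direction, beside 7.54% and 8.22% of all tested genes. GLUD1, which turns glutamate into alpha-ketoglutarate, GLUL, which makes glutamine, and ODC1, which makes putrescine from ornithine, fall by 0.29, 0.18 and 0.14 on the log2 scale (adjusted p of 8.0e-06, 0.0019 and 0.0059 in edgeR). The glutathione enzymes GSS and GCLC rise by 0.16 and 0.15 (adjusted p of 0.0094 and 0.010 in edgeR). GCLC, which joins glutamate and cysteine, is at 35.5, 35.4 and 34.3 TPM in shControl and at 41.3, 44.8 and 43.9 TPM in shSTBD1. Its groups do not overlap, and it is higher where SLC7A11, the cystine carrier, is lower. With effective-length offsets the log2 fold change of GCLC is 0.32 in place of 0.15, and with limma on TPM it is 0.30. The partner subunit GCLM, chosen for mention with its values known, is at -0.095 on the log2 scale and does not pass the test (adjusted p = 0.37 in edgeR). The calls are lost for GCLC without shSTBD1 replicate 2, for GSS without shSTBD1 replicate 1, where 1 gene of the list is higher, and for ODC1 without shSTBD1 replicate 3. The TPM values of GSS overlap between the groups.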

How the data were processed

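After removal of poor reads, the authors used STAR 2.7.1a for alignment to Hg38 (Ensembl release 93 annotation) and RSEM 1.3.1 for quantification. The expected counts deposited by the authors are not normalized, and the deposited TPM values are scaled to a fixed total after division by effective length. Whether counting used strand is not given in the sources used here. Symbols and positions come from GENCODE release 44 on GRCh38, the same build with a later annotation.

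Expected counts were rounded, filtered by filterByExpr, scaled by TMM (factors 0.979 to 1.009) and tested in edgeR 4.0.16 under R 4.3.3 with the quasi-likelihood F-test and no block, with Benjamini-Hochberg adjustment over 15566 genes. Alternatives were DESeq2 1.42.0, limma 3.58.1 on log2(TPM + 1) or log2(TPM + 0.1), other scalings and filters, unrounded counts, effective-length offsets, the replicate block and each library left out. Single ratios were compared by exact permutation over the 10 divisions of the libraries. The p-values rest on the spread between 3 libraries a group, and whether these came from separate infections is not given. In edgeR the spread of a gene is moderated with that of other genes, which gives 16.2 degrees of freedom for the transporters. Members and lists were chosen with earlier results of these data known. Named genes are the 10 members, STBD1, and in each list the called genes, at most the 4 largest changes in each direction. A called gene of the list of amino acid users is counted but not reported here by name.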

Additional observations from a re-analysis of the deposited data

How the results depend on the processing

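SLC7A5, SLC7A11, SLC7A1 and SLC38A1 keep their direction and call under all 17 alternatives. SLC3A2 keeps its direction and loses its call with limma on log2(TPM + 1) and log2(TPM + 0.1), with effective-length offsets and with these and the replicate block, at log2 fold changes of -0.15, -0.15, -0.14 and -0.14. SLC1A5 loses it in the same settings at -0.17, -0.18, -0.17 and -0.17, and SLC1A4 with limma at -0.40 and -0.58 and with block and offsets at -0.60. SLC6A9 gains a call without the filter, with at least 10 counts in every library and with the replicate block, at -0.43 in each, and without shControl replicate 2 (-0.52) or shSTBD1 replicate 1 (-0.54). SLC38A2 changes sign with limma (-0.018 at both pseudocounts), offsets (-0.0079) and block with offsets (-0.0078). STBD1 is -0.54 and -0.65 with limma and is not called. With a library left out, the log2 fold changes run from -0.17 to -0.13 for SLC3A2, from -0.17 to -0.12 for SLC1A5, from -0.0036 to 0.015 for SLC38A2, from -0.54 to -0.31 for SLC6A9 and from 0.16 to 0.37 for SLC43A1.

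Fits on TPM or with length offsets call far fewer genes. Limma on log2(TPM + 1) calls 114 genes lower and 178 higher, limma on log2(TPM + 0.1) 114 and 176, offsets 224 and 287, and block with offsets 142 and 208, and at an unadjusted p under 1e-5 these give 18, 19, 50 and 18 genes, while fitting without a filter gives 959. The transporters called lower are then 4, 4, 5 and 4. In these 4 fits the amino acid response has 5 lower and 1 higher, the amino acid users 1 and 1, other plasma membrane transporters 0 and 0, and lysosomal and mitochondrial carriers 0 higher. mTORC1 sensing has 0 lower in them and 1 higher, or 0 higher with block and offsets. It also has 0 lower with library size, without the filter, with DESeq2 and with the block. Other plasma membrane transporters have 2 lower without the filter, and mitochondrial carriers 1 lower with upper-quartile factors and with at least 10 counts. The cause was not tested.

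With a library left out, 624 to 1244 genes are lower, 785 to 1333 higher and 201 to 545 pass 1e-5, the lowest counts coming without a shSTBD1 library (624, 674 and 759 lower without replicates 2, 3 and 1). The transporters called lower run from 6 to 8, the response from 6 to 12 lower and 1 to 3 higher, mTORC1 sensing from 0 to 0 lower and 2 to 4 higher, amino acid users from 2 to 3 and 1 to 4, and mitochondrial carriers from 0 to 1 and 0 to 2. Centred on each group, libraries that share a number correlate at 0.071, 0.068 and -0.0084. Replicates 1 and 2 correlate best with their own number and replicate 3 does not. With 3 libraries a group, these values cannot decide whether libraries of the same number were handled together. With the replicate block 1218 genes are lower and 1361 higher (1173 and 1280 without it), and 8 transporters are lower. Depth limits SLC1A4, SLC6A9 and SLC43A1 most.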

Other observations

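Among all genes with an SLC symbol, the superfamily of solute carriers, 231 of 368 are tested, and 25 are lower and 24 higher at an adjusted p under 0.05 (edgeR). The 10 transporters account for 7 of the 25, and without them 8.14% of the other 221 are lower and 10.9% higher, with a median log2 fold change of -0.0052. Among all tested genes 7.54% are lower and 8.22% higher. Past an unadjusted p of 1e-5 stand 7 lower and 5 higher solute carriers, where 0.957% and 1.43% of all tested genes do so. These were named after their values were seen. Besides SLC7A11, SLC7A1, SLC38A1 and SLC7A5, the lower genes are SLC16A6, a relative of the lactate carriers, SLC38A10, a relative of SLC38A1, and SLC2A1, the glucose carrier GLUT1, with log2 fold changes of -0.81, -0.30 and -0.28 (adjusted p of 7.0e-06, 1.8e-05 and 6.3e-06 in edgeR). The CPM of SLC2A1 is 480 ± 8.59 in shControl (SD, n = 3), and every shSTBD1 library lies below this group, with a mean of 394. The higher genes are SLC25A25, SLC25A1, SLC39A9, SLC4A7 and SLC6A6, with log2 fold changes of 0.67, 0.67, 0.33, 0.32 and 0.26. SLC25A1, the mitochondrial citrate carrier, has 57.0 ± 1.56 CPM in shControl against 90.8 ± 1.39 in shSTBD1 (edgeR adjusted p = 1.3e-08). All 12 genes separate shControl from shSTBD1 libraries in CPM, where 16.3% of the tested genes do so as lower and 17.4% as higher. The 12 were picked by a low p in the same libraries, so their separation adds no support.

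Of the tested genes with the letters TGATGNAAN in a promoter window, 14.4% are called lower and 7.38% higher, and of those with a window but without the letters 8.02% and 8.87%. The 43 genes with the letters that are called lower include SLC3A2, SLC7A1, SLC1A4, SLC1A5, SLC38A1, ASNS, CHAC1 and CEBPG, whose sites are shown above. The shares were computed after the sites in the transporters were seen, and were not tested. They count these named genes too, and the share without them was not computed.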
